A study of Mus musculus with 51 samples.

Results

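The transcripts of C57BL/6 mammary gland (MG) were compared between 1 month and 4 hr after the last of 4 weekly whole-body X-ray doses of 1.8 Gy, the high-dose (HD) regimen of a study of radiation and breast cancer susceptibility. All arrays whose titles name C57BL/6, the high dose and the late or early harvest were taken, which gave 4 arrays at 1 month and 4 at 4 hr, 8 of 51 in the series, of which 43 were MG arrays and 23 of those were C57BL/6 MG. The question was which of the early changes had gone by 1 month, which were still there, and which appeared only then. The HD glands at both times came from female virgin C57BL/6 mice that were 8 weeks old at the first dose, so that the 1 month mice were also older at harvest. Beside them stood C57BL/6 low-dose (LD) glands after 4 weekly doses of 7.5 cGy (4 arrays at 1 month and 4 at 4 hr) and sham-irradiated glands (4 arrays at 1 month and 3 at 4 hr), and BALB/c HD glands with 4 arrays at each time. Glands were taken without their inguinal lymph nodes and each array carried the RNA of 1 mouse, so replicates are separate animals and no mouse was measured at both times.

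X-rays break DNA, and the transcription factor p53 answers within hours by switching on genes that halt the cell cycle, limit p53 itself and can lead to cell death. The MG is a mixed tissue in which a small epithelial tree of luminal and myoepithelial cells lies in fat, with blood vessels, fibroblasts and immune cells around it. Lymphocytes and dividing epithelial progenitors are among the more radiation-sensitive cells of such a tissue.

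Each value below is a log2 intensity of a probe set as deposited by the authors after RMA, and each difference is a difference of such values, so that 1 unit is a doubling of the signal. Array medians lay between 6.16 and 6.32 in the 8 HD arrays, and between 6.21 and 6.34 in the other 15 C57BL/6 arrays. The gland was recognisable by its markers: the fat cell gene Adipoq had 13.68 to 13.79 in HD 1 month glands and 13.57 to 13.78 in HD 4 hr glands, and the luminal keratin gene Krt18 had 11.71 to 11.96 in HD 1 month glands and 10.86 to 11.63 in HD 4 hr glands. Among the HD arrays, 1 stood apart. HD 1 month replicate 3 lay above the median array by 1.30 over the T cell list and by 1.62 over the B cell list, against −0.09 to 0.28 in the other HD 1 month arrays, and HD 4 hr arrays lay between −0.11 and −0.05 over both lists. Among the sham arrays, 1 month replicate 2 lay 4.99 above the median array over the skeletal muscle list. Results were therefore also computed without those 2 arrays. The HD 4 hr arrays came from plate columns 6 to 8 and the HD 1 month arrays from columns 9 to 12, so plate position and time cannot be told apart within the HD arrays.

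Over the month, 15 of 32 p53 target genes fell and 6 of 10 MHC class II genes rose. Both lists were chosen with earlier results of these data known. The fit (limma on all 23 C57BL/6 MG arrays, p adjusted over 22626 probe sets by Benjamini-Hochberg, called at an adjusted p under 0.05) called 192 of 11807 genes between HD 1 month and HD 4 hr glands, or 1.63%, with 116 higher and 76 lower at 1 month. Of these 192 genes, 179 had 4 arrays at 1 month that did not overlap the 4 arrays at 4 hr, 107 of them higher and 72 lower. These genes were called on the same arrays, and over all 11807 genes at their brightest probe set 719 were apart and higher and 563 apart and lower. The split between higher and lower rests on the scaling of the arrays: with each array centred on its own median it was 58 higher and 154 lower, and after a second quantile normalization 57 higher and 87 lower. Without HD 1 month replicate 3 and sham 1 month replicate 2, 41 genes were higher and 35 lower. Among called genes whose arrays did not overlap, the largest falls were in Cdkn1a (5.54-fold), Slc19a2 (3.51-fold), Aen (3.14-fold) and Trp53inp1 (2.64-fold), and the largest rises in Defb1 (12-fold), Ms4a4b (5.35-fold), H2-Aa (3.78-fold) and Cytip (3.71-fold). Among sham glands over the same month 455 genes were called, 3.85% of genes, with 97 higher and 358 lower, and none was called without sham 4 hr replicate 2. Among LD glands limma called 0 genes, with 3099 probe sets at an unadjusted p under 0.05.

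The p53 targets of cell cycle arrest and feedback held the largest falls among called genes whose arrays did not overlap. Cdkn1a, the cyclin-dependent kinase inhibitor p21, had 5.92, 6.69, 6.98 and 5.54 in HD 1 month glands and 8.58, 9.09, 8.55 and 8.81 in HD 4 hr glands. The groups did not overlap, and the difference was −2.47 (standard error 0.36, adjusted p = 0.000743). Sham glands had 5.24 to 5.69 at 1 month and 5.72 to 6.66 at 4 hr, so HD 1 month replicates 2 and 3 lay above every sham array at either time while replicates 1 and 4 did not. The difference between HD and sham glands was 0.85 at 1 month (adjusted p = 0.216) and 2.55 at 4 hr (adjusted p = 0.00125). A second Cdkn1a probe set gave −2.48 over the month. With plate column as a covariate the first probe set gave −2.03 (adjusted p = 0.0982).

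A start of Cdkn1a is shown because, of 25 p53 list genes with a promoter window, it alone held a pair of p53 half-sites. A half-site is the degenerate 10-base motif bound by a p53 dimer. At most 13 bases were allowed between the half-sites of a pair. The window runs from 250 bases before to 50 bases after a RefSeq start of the gene (GRCm38.p6, chr17:29090729-29091028, plus strand). It is written 5′ to 3′, with the half-sites in capitals.
Cdkn1a: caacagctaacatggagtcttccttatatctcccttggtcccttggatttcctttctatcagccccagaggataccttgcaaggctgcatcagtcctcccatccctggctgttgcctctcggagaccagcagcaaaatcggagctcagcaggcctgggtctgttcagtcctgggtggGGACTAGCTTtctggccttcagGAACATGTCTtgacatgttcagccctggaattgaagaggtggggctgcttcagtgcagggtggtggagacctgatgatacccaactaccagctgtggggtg
The half-sites begin 73 and 51 bases before this start, and only exact matches of the motif were marked. Such a pair was found in 0.074% of 27025 genes with a window of this length. Some genes had several windows, 32851 in all, and a gene counted when any of its windows matched. Single half-sites were found in 12 of the 25 list genes (48%) and in 9.55% of all genes, searched after the expression values were known. A match is a description of these letters and not a bound site.

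Slc19a2, a thiamine transporter gene, overlapped the sham level again at 1 month. It had 6.80, 6.49, 7.18 and 6.58 in HD 1 month glands and 8.63, 8.62, 8.49 and 8.53 in HD 4 hr glands. Sham glands had 6.26 to 6.96 at 1 month and 6.38 to 6.68 at 4 hr, so HD glands were clear of sham glands at 4 hr and overlapped them at 1 month. The change over the month was −1.81 (standard error 0.14, adjusted p = 4.76e-07), against 0.10 in sham glands, and the difference of these changes was −1.91 (standard error 0.21, adjusted p = 0.000176). Aen, an exonuclease gene induced by p53, had 5.33, 5.69, 5.79 and 5.39 in HD 1 month glands and 7.30, 7.34, 7.17 and 7.01 in HD 4 hr glands. Its change was −1.65 (standard error 0.14, adjusted p = 1.39e-06), and HD 1 month arrays overlapped the sham 1 month arrays, which had 5.45 to 5.77. Mdm2, the ubiquitin ligase that degrades p53, had 8.21, 8.23, 8.76 and 8.28 in HD 1 month glands and 9.28, 9.22, 9.29 and 9.36 in HD 4 hr glands. HD 1 month replicate 3 was the one high array, and the other three overlapped the sham 1 month arrays, which had 8.22 to 8.35. The Mdm2 change of −0.92 (standard error 0.10, adjusted p = 4.42e-05) differed from that of sham glands by −1.08 (adjusted p = 0.00414). Dcxr, a carbonyl reductase gene, had 8.17, 8.18, 8.24 and 7.95 in HD 1 month glands and 9.20, 9.26, 9.34 and 9.32 in HD 4 hr glands. The Dcxr arrays were tight within each group and 1.15 apart (adjusted p = 1.39e-06).

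**Figure D1:**
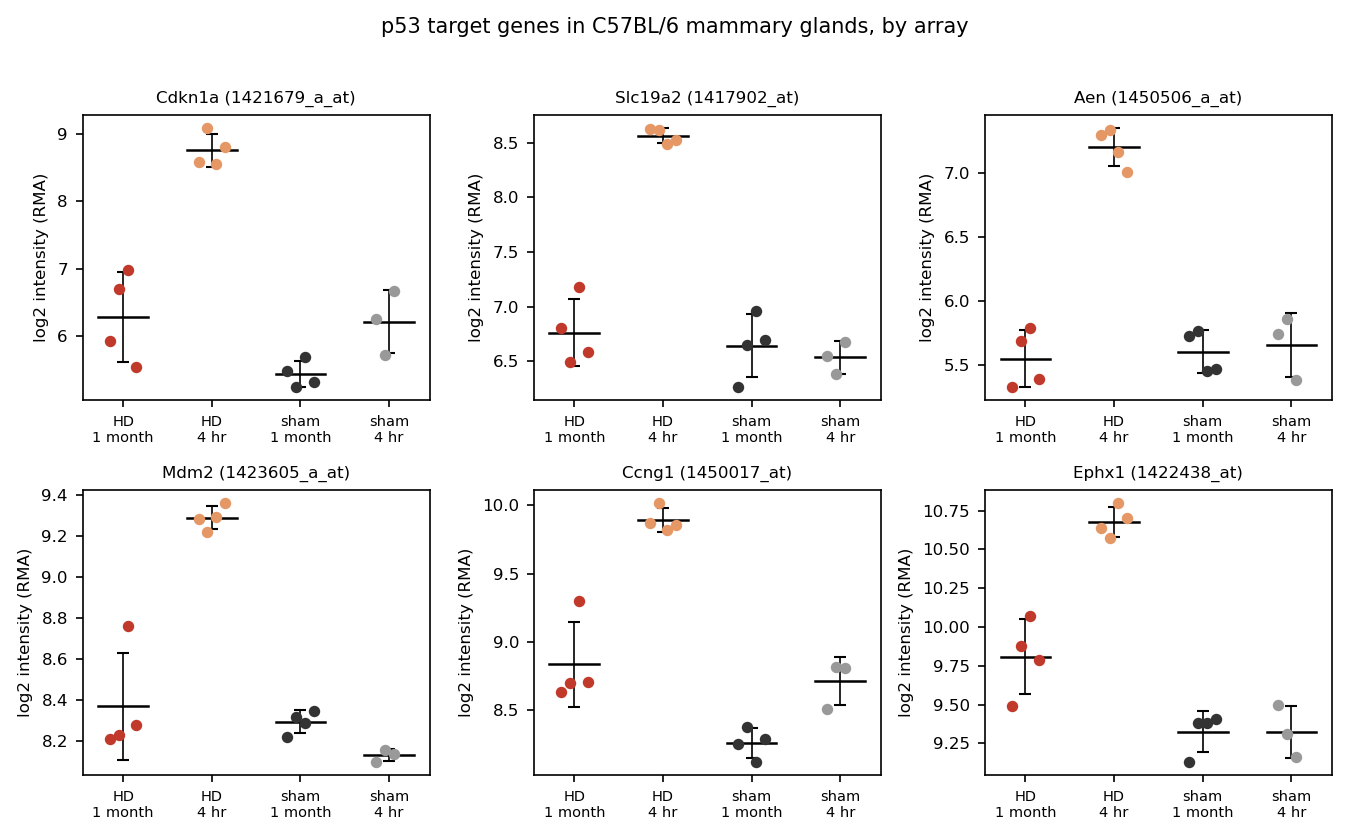
Log2 intensity (vertical axis) of 6 p53 target genes in each array of C57BL/6 HD and sham glands at 1 month and 4 hr; lines are group means and bars are SDs (n = 4, and 3 for sham 4 hr). The 4 HD 4 hr arrays stand above all others in each panel, while at 1 month Slc19a2 and Aen overlap the sham arrays, and Ccng1 and Ephx1 lie above the sham 1 month arrays.

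Other p53-linked genes fell as well. Trp53inp1, a stress protein gene of the p53 pathway, had 5.81 to 6.87 in HD 1 month glands and 7.45 to 7.97 in HD 4 hr glands, a difference of −1.40 (standard error 0.19, adjusted p = 0.000328). Zmat3, a p53-induced RNA-binding protein gene, had 7.81, 7.88, 8.44 and 7.89 in HD 1 month glands and 8.96, 9.09, 8.85 and 8.97 in HD 4 hr glands, and fell by 0.97 (adjusted p = 0.00059). Polk, a DNA polymerase that copies past damaged bases, had 7.28, 6.93, 7.69 and 6.86 in HD 1 month glands and 8.16, 8.05, 8.00 and 8.10 in HD 4 hr glands, and fell by 0.89 (adjusted p = 0.0103). In these 3 genes the groups did not overlap and HD 1 month replicate 3 was the highest array of its group. Polk kept its direction but was not called without HD 4 hr replicate 1 (adjusted p = 0.0503) or without HD 1 month replicate 4 (adjusted p = 0.0511).

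Over the whole list of 32 measured p53 targets of arrest and feedback, each at its brightest probe set, 15 fell and 0 rose. The median change was −0.65. Over all genes 57 of 11807 were lower (0.483%), with a median of 0.01. The list was chosen with earlier results of these data known. The mean over the list lay 0.10, 0.02, 0.40 and −0.06 from the median array in HD 1 month glands, and 0.64, 0.72, 0.66 and 0.74 in HD 4 hr glands. The 2 groups were thus apart, and HD 1 month replicate 3 was the one array above the sham range of −0.15 to 0.16. Without that array the median change was −0.70, with 15 genes lower, and with plate column as a covariate it was −0.58, with 7 lower over the month and 10 higher than sham at 4 hr. Leaving out HD 4 hr replicate 1 or HD 1 month replicate 4 left 10 lower. At 4 hr 15 of the 32 were higher than in sham glands, with a median of 0.65 (all genes: 0.423% higher), and at 1 month 1 was higher, Ephx1, with a median of 0.16 (all genes: 0.449% higher). Members without a called fall included Sesn1 (0.07), Plk2 (0.18), Gadd45a (0.03), Ddb2 (0.13) and Rrm2b (0.04). Among 14 p53-linked apoptosis genes the median was −0.20, and Trp53inp1 and Apaf1 fell. Apaf1, the core of the apoptosome, changed by −0.74 (adjusted p = 0.0145), while its HD 1 month replicate 3 at 7.52 met the lowest HD 4 hr array. Bid, which links death receptors to mitochondria, rose by 0.56 (adjusted p = 0.0267), and no apoptosis gene was called higher with plate column as a covariate or without any 1 of HD 1 month replicates 1, 2 and 3 and HD 4 hr replicates 1 and 2, among other alternatives.

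A change over the month beyond that in sham glands was called for 7 genes, 0.0593% of genes, all of them more negative in HD glands. These were Slc19a2, Aen, Mdm2, Dcxr, Ak1, Ei24 and Txnip, all of which had been higher in HD than in sham glands at 4 hr. The difference and the 4 hr response share the HD 4 hr and sham 4 hr arrays. Ak1, the cytosolic adenylate kinase, had 6.34, 6.87, 6.63 and 6.51 in HD 1 month glands, 7.71, 8.14, 7.66 and 7.95 in HD 4 hr glands, 6.70 to 7.98 in sham 1 month glands and 6.69 to 6.82 in sham 4 hr glands. Its fall of 1.28 took 3 of the 4 HD 1 month arrays below every sham array, and its difference from the sham change was −1.66 (adjusted p = 0.0278), which was lost in 10 of 26 alternatives. Txnip, the thioredoxin-binding protein of glucose and redox regulation, behaved in another way. It had 11.02 to 11.17 in HD 1 month glands, 11.19 to 11.58 in HD 4 hr glands, 11.11 to 11.44 in sham 1 month glands and 10.11 to 10.66 in sham 4 hr glands. Sham 4 hr glands were the low group, so Txnip changed by −0.26 in HD glands (adjusted p = 0.257) and by 0.83 in sham glands (adjusted p = 0.0102). The calls of Slc19a2 and Dcxr and the first probe sets of Aen and Mdm2 were kept in all 26 alternatives, while those of Ei24 (−0.53, adjusted p = 0.0278) and Txnip (−1.09, adjusted p = 0.0163) were lost in 15 and 5.

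MHC class II genes, which present peptides to helper T cells, rose together. H2-Aa, the alpha chain of I-A, had 10.26, 10.32, 10.76 and 10.94 in HD 1 month glands and 8.86, 8.03, 8.65 and 9.07 in HD 4 hr glands. Sham glands had 10.83 to 11.48 at 1 month and 10.54 to 11.09 at 4 hr, so HD 4 hr was the group that stood apart and HD 1 month glands reached the lower edge of the sham range. The change was 1.92 (standard error 0.23, adjusted p = 0.000114). H2-Eb1, the beta chain of I-E, had 9.98, 9.91, 10.19 and 10.49 in HD 1 month glands and 8.38, 8.19, 8.32 and 8.60 in HD 4 hr glands, a change of 1.77 (standard error 0.18, adjusted p = 1.3e-05). H2-Ab1, the beta chain of I-A, rose by 1.73 (adjusted p = 4.18e-05), and Cd74, the invariant chain that guides class II molecules, by 1.49 (adjusted p = 0.000114). Neither gene's HD arrays overlapped between the times. Probe sets of H2-Aa, H2-Ab1 and H2-DMb2 are of a type that can also match related transcripts, and near-identical class II genes are uncertain for that reason.

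Of 10 class II genes, 6 rose and 0 fell, with a median of 1.11 (all genes: 0.788% higher, median 0.01). H2-DMa and H2-DMb2, which load peptides, were the other two that rose, by 1.15 (adjusted p = 0.0302) and 1.07 (adjusted p = 0.00533). Ciita, the coactivator that switches the class II genes on, changed by 0.05 and H2-Oa, a brake on loading, by 0.43, both uncalled. At 4 hr 6 of the 10 were lower than in sham glands with a median of −1.32 (all genes: 0.44% lower). At 1 month none was called, with a median of −0.49, and 9 of 10 lay below 0. In sham glands the list changed by a median of 0.28 with 0 called, and the difference from the sham change had a median of 0.82 with 0 of 10 called. The list mean lay −0.33, −0.30, 0.17 and 0.03 from the median array in HD 1 month glands, against −1.13, −1.29, −1.14 and −0.90 in HD 4 hr glands, 0.08 to 0.52 in sham 1 month glands and −0.16 to 0.16 in sham 4 hr glands. The HD 4 hr arrays thus lay below all other C57BL/6 arrays. Without HD 1 month replicate 3 the median was 0.99 and 5 genes rose, and with plate column as a covariate 4 rose.

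Cells that carry class II molecules include B cells and macrophages. In these glands the 13 genes of the B cell list had a median difference of 0.50 with 0 called, which was 0.09 without HD 1 month replicate 3, and the list mean lay at −0.09 to 1.62 in HD 1 month glands and −0.11 to −0.05 in HD 4 hr glands. Its defining gene Ms4a1, or CD20, had at its brighter probe set 4.12, 4.19, 7.84 and 4.31 in HD 1 month glands and 4.29 to 4.44 in HD 4 hr glands, so that HD 1 month replicate 3 alone lay above the HD 4 hr arrays. The 29 macrophage genes had a median difference of −0.14 with 0 called, whose sign rested on 1 array: it was 0.17, with 1 gene higher, without HD 1 month replicate 1, −0.31 without HD 4 hr replicate 1 and −0.00, with 1 gene higher, without HD 4 hr replicate 4. The list means were −0.94 to 0.11 in HD 1 month glands and −0.68 to −0.00 in HD 4 hr glands. The part of these cells in the class II change was not tested. In whole glands fewer cells of a type and less RNA per cell cannot be told apart.

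**Figure D2:**
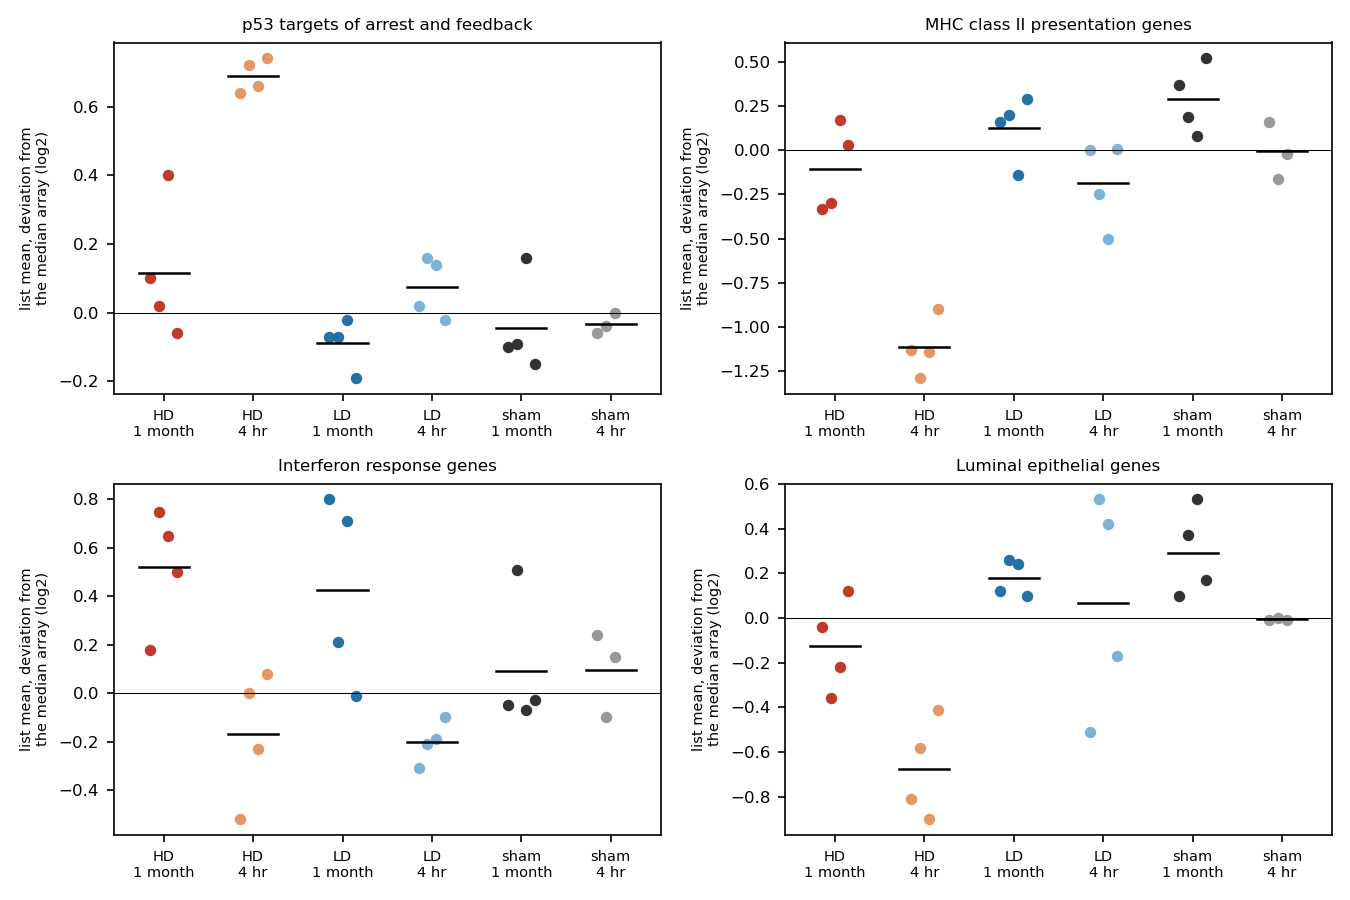
Mean over the genes of 4 lists in each C57BL/6 array, as log2 deviation from the median array (vertical axis), for HD, LD and sham glands at 1 month and 4 hr; points are arrays and lines group means. The p53 list lies at 0.64 to 0.74 in HD 4 hr glands alone, the MHC class II list at −1.29 to −0.90 there, and the interferon list at 0.18 to 0.75 in HD 1 month glands and −0.52 to 0.08 in HD 4 hr glands.

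The promoters of 3 class II genes that rose are shown because each of the 7 list genes with a window held the letters CCAAT, the core of the NF-Y box, on one strand or the other. All windows run from 250 bases before to 50 after a RefSeq start of each gene (GRCm38.p6). They are written 5′ to 3′ along the gene, with CCAAT or its complement in capitals. H2-Aa lies at chr17:34287774-34288073 (minus strand), H2-Eb1 at chr17:34305617-34305916 (plus strand) and H2-DMb2 at chr17:34144999-34145298 (plus strand).
H2-Aa: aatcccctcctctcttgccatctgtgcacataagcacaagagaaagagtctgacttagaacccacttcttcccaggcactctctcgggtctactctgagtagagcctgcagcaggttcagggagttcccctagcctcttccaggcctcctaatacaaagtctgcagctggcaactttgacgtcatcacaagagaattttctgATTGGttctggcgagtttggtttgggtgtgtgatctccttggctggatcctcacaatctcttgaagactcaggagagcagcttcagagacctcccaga
H2-Eb1: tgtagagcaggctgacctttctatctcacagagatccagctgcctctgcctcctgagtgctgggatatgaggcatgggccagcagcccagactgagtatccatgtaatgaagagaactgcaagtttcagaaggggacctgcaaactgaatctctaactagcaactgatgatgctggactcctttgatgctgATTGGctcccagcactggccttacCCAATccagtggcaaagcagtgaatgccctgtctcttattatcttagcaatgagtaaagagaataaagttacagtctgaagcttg
H2-DMb2: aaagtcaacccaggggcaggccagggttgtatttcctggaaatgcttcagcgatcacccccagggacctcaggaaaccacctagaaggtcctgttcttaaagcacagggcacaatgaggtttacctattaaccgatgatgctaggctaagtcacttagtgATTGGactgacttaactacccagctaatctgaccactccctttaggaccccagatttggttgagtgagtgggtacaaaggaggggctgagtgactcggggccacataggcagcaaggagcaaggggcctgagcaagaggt
The box begins 48 bases before the start in H2-Aa, 59 and 35 bases before it in H2-Eb1 and 90 bases before it in H2-DMb2. CCAAT was found in 41.1% of all 27025 genes with a window of this length, so it is a common sequence, and the search was chosen after the expression values were known.

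The 10 largest rises among called genes whose arrays did not overlap included Ms4a4b, Cytip, Coro1a and Ccl5, genes of white blood cells, in each of which HD 1 month replicate 3 was the highest array. Ms4a4b, a membrane protein of mouse T cells, had 6.57, 6.40, 9.77 and 7.39 in HD 1 month glands and 5.14, 5.05, 5.12 and 5.13 in HD 4 hr glands, a change of 2.42 (standard error 0.49, adjusted p = 0.0198). HD 4 hr arrays also lay below all sham arrays (5.45 to 6.65), and HD 1 month replicate 3 was the highest. Without that array the change was 1.68 (adjusted p = 0.00994), and the call was lost in 7 of 27 alternatives, among them without HD 4 hr replicate 1 (adjusted p = 0.0718), HD 4 hr replicate 2 (adjusted p = 0.0643) or HD 1 month replicate 4 (adjusted p = 0.0518). Coro1a, an actin regulator of white blood cells, had 7.20, 7.52, 9.49 and 7.43 in HD 1 month glands and 6.10, 6.07, 6.24 and 6.61 in HD 4 hr glands, a change of 1.66 (adjusted p = 0.0302) that was 1.13 without HD 1 month replicate 3 (adjusted p = 0.0372). The Coro1a call was lost in 7 of 27 alternatives, among them without HD 4 hr replicate 1, 2 or 3 (adjusted p of 0.0587 to 0.112). Ccl5, a chemokine of T and NK cells, had 6.32, 6.29, 8.66 and 7.65 in HD 1 month glands and 5.97, 5.20, 5.79 and 5.58 in HD 4 hr glands. Its change of 1.60 (adjusted p = 0.0483) was 1.12 without HD 1 month replicate 3 (adjusted p = 0.134), and the call was lost in 19 of 27 alternatives. Cytip, a regulator of white blood cell adhesion, had 7.49, 6.64, 8.59 and 8.11 in HD 1 month glands and 5.32, 6.24, 5.43 and 6.29 in HD 4 hr glands. HD glands lay below the sham range (7.99 to 9.65) in all 4 arrays at 4 hr and in 2 of 4 at 1 month. The rise of 1.89 (adjusted p = 0.0404) was 1.59 without HD 1 month replicate 3 (adjusted p = 0.124). All 14 T cell genes had a positive difference, with a median of 0.28 and 0 called, which was 0.08 without HD 1 month replicate 3, and the list mean lay at 0.09, −0.00, 1.30 and 0.28 in HD 1 month glands and between −0.07 and −0.05 in HD 4 hr glands. Cd3g, a subunit of the T cell receptor complex, had 4.93, 4.47, 7.87 and 5.07 in HD 1 month glands and 4.15 to 4.46 in HD 4 hr glands. The part of T cells in the changes of these 4 genes was not tested.

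Among luminal epithelial genes, Elf5 rose over the month. Elf5, the transcription factor of luminal progenitors and alveolar cells, had 8.54, 7.98, 8.34 and 9.17 in HD 1 month glands and 6.75, 6.16, 7.02 and 6.88 in HD 4 hr glands. Sham glands had 9.74 to 10.19 at 1 month and 8.44 to 10.11 at 4 hr. HD 1 month arrays therefore lay above all HD 4 hr arrays and below all sham 1 month arrays. The change was 1.80 (standard error 0.42, adjusted p = 0.0403) and was lost in 12 of 27 alternatives, among them without HD 4 hr replicate 1, 2 or 3 or any 1 of HD 1 month replicates 1, 3 and 4 (1.58 to 1.91, adjusted p of 0.0593 to 0.127). The difference from sham glands was −1.42 at 1 month (adjusted p = 0.0864) and −2.55 at 4 hr (adjusted p = 0.0059). A second, dim Elf5 probe set with a mean of 4.56 changed by 0.07 over the month (adjusted p = 0.867). Its difference from sham at 1 month was −0.65 (adjusted p = 0.0494). Muc15, a membrane mucin, had 8.05, 7.54, 7.72 and 9.31 in HD 1 month glands and 6.18, 6.45, 5.76 and 6.43 in HD 4 hr glands, against 9.41 to 10.38 in sham 1 month glands. The Muc15 change of 1.95 was not called (adjusted p = 0.0773), although no arrays overlapped, and its 4 hr response was −3.39 (adjusted p = 0.00509).

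Of 29 luminal genes, 28 had a positive difference over the month, with a median of 0.50, and Elf5 alone was called. Over all 11807 genes 6089 had a positive difference and 0.788% were called higher. Ehf, an ETS factor of epithelia, changed by 1.79 (adjusted p = 0.104), Wnt4, a progesterone-induced signal of duct branching, by 1.01 (adjusted p = 0.0568), and Lcn2, a secreted iron-scavenging protein, by 0.70 (adjusted p = 0.0665). Sham glands changed in the same direction by a median of 0.33. At 4 hr Elf5, Ehf and Kit were lower than in sham glands (all genes: 0.44% lower). At 1 month the cell-surface mucin Muc1 was (−1.31, adjusted p = 0.0123, all genes: 0.525% lower). The luminal list mean lay −0.04, −0.36, −0.22 and 0.12 from the median array in HD 1 month glands and −0.81, −0.58, −0.90 and −0.41 in HD 4 hr glands, with 0.10 to 0.53 in sham 1 month glands. Among 18 myoepithelial and basal genes 17 had a positive difference, with a median of 0.36 and 0 called, and sham glands changed by a median of 0.39. Both epithelial lists thus moved upward in sham glands too. Defb1, an antimicrobial beta-defensin of epithelia, had 9.95, 8.75, 9.11 and 9.38 in HD 1 month glands and 4.78, 7.27, 4.56 and 6.27 in HD 4 hr glands. Sham glands spread widely, with 4.70 to 7.45 at 1 month and 6.70 to 9.17 at 4 hr. The Defb1 change of 3.58 (standard error 0.70, adjusted p = 0.0167) was not called without HD 4 hr replicate 1 (adjusted p = 0.086), HD 4 hr replicate 3 (adjusted p = 0.0541) or HD 1 month replicate 4 (adjusted p = 0.0547). HD 1 month glands were also above sham 1 month glands by 3.00 (adjusted p = 0.0465).

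Of 20 interferon response genes, 6 rose over the month (all genes: 0.788% higher) and 3 were above sham glands at 1 month (all genes: 0.449% higher). Iigp1, an interferon-induced GTPase, had 10.35, 10.55, 10.78 and 10.62 in HD 1 month glands and 9.36, 9.43, 9.47 and 9.79 in HD 4 hr glands, a change of 1.06 (standard error 0.13, adjusted p = 0.000122) that was kept in all 27 alternatives. For Iigp1 itself the 1 month level lay within the sham range (10.14 to 10.61) or just above it. Irf1, a transcription factor of the interferon response, had 9.08, 8.93, 8.89 and 9.09 in HD 1 month glands and 8.32, 8.43, 8.53 and 8.48 in HD 4 hr glands, a change of 0.56 (standard error 0.08, adjusted p = 0.000448). Irf1 was also above sham 1 month glands, which had 8.56 to 8.73, by 0.35 (adjusted p = 0.0392). Psmb9, a subunit of the immunoproteasome, rose by 0.48 (adjusted p = 0.0249) and Igtp, a second GTPase, by 0.96 (adjusted p = 0.0305). Each of these calls was lost in 7 of 27 alternatives. A dimmer Psmb9 probe set gave 0.13 over the month (adjusted p = 0.73) and 0.24 against sham at 1 month (adjusted p = 0.458). All 20 genes of the list had a positive difference, with a median of 0.60, and without HD 1 month replicate 3 only 2 were called. Against sham glands the median was 0.44 at 1 month, with Irf1, Psmb9 and Gbp2 called, and −0.22 at 4 hr, with 0 called. Without HD 1 month replicate 3 none of the list was called against sham at 1 month. In LD glands the list changed by a median of 0.62 with 0 called, and in sham glands by 0.01. Cxcl9, a chemokine induced by interferon gamma, had 9.89, 9.38, 9.77 and 9.86 in HD 1 month glands, 8.18 to 9.08 in HD 4 hr glands and 7.96 to 9.19 in sham 1 month glands, and rose by 1.05 over the month (adjusted p = 0.0177).

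Of 6 erythroid genes at their brightest probe sets, Alas2 alone was called, and it fell. Alas2, the first enzyme of heme synthesis in red cell precursors, had 6.27, 7.33, 7.23 and 6.76 in HD 1 month glands and 7.80, 7.88, 8.37 and 7.97 in HD 4 hr glands. HD glands lay above the sham range (5.55 to 6.68) at 4 hr, and 3 of 4 did at 1 month. The change of −1.11 (standard error 0.25, adjusted p = 0.0398) was lost in 11 of 27 alternatives, with values of −1.49 to −0.90 over all of them. Slc4a1, the anion exchanger of red cells, had 3.81 to 3.88 in HD 1 month glands and 4.11 to 4.63 in HD 4 hr glands, a difference of −0.52 (adjusted p = 0.0198) at a dim probe set with a mean of 3.94, and its brighter probe set gave 0.15 (adjusted p = 0.393). The alpha globin gene Hba-a1 differed by −0.32 (adjusted p = 0.187) and −0.36 (adjusted p = 0.134) at its 2 brighter probe sets and by −1.23 (adjusted p = 0.121) at its dimmest, none of them called. Pqlc3, which carries a PQ-loop repeat, was among the 10 genes with the largest falls, with 7.93, 7.61, 7.95 and 7.19 in HD 1 month glands and 8.96, 8.90, 8.39 and 8.41 in HD 4 hr glands. Sham glands fell too, with 7.29 to 7.54 at 1 month and 7.78 to 8.24 at 4 hr, so that the 2-fold fall of Pqlc3 (adjusted p = 0.0143) stood beside a log2 difference of −0.67 in sham glands (adjusted p = 0.0753).

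Most genes of the early response were no longer called at 1 month. At 4 hr limma called 114 genes between HD and sham glands (0.966% of genes), with 55 higher and 59 lower. The split was 158 higher and 44 lower with arrays centred on their medians, and 73 and 47 after a second quantile normalization. At 1 month 151 genes were called between HD and sham glands (1.28%), 72 higher and 79 lower, with 142 and 60 and with 95 and 75 under those 2 scalings. The 1 month response uses no array of the 4 hr response, but the 114 genes were chosen by their 4 hr values, which stand here as a description. The 114 genes were read at the probe set with the smallest p at 4 hr. Of them, 10 were called again at 1 month with the same sign, 0 with the opposite sign and 104 not, while 99 kept their sign. The 55 higher genes had a median of 0.81 at 4 hr and 0.14 at 1 month, and 10 of them kept more than 0.5 of their size. The 59 lower genes had a median of −0.88 at 4 hr and −0.56 at 1 month, and 32 of them did. At an unadjusted p under 0.05 with the same sign there were 19 of 55 higher genes and 42 of 59 lower genes at 1 month. Over the other fits and with single arrays left out, the median 1 month response lay between 0.11 and 0.26 for the higher genes and between −0.67 and −0.48 for the lower ones. Whether the higher and the lower genes differed in the share they kept was not tested.

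**Figure D3:**
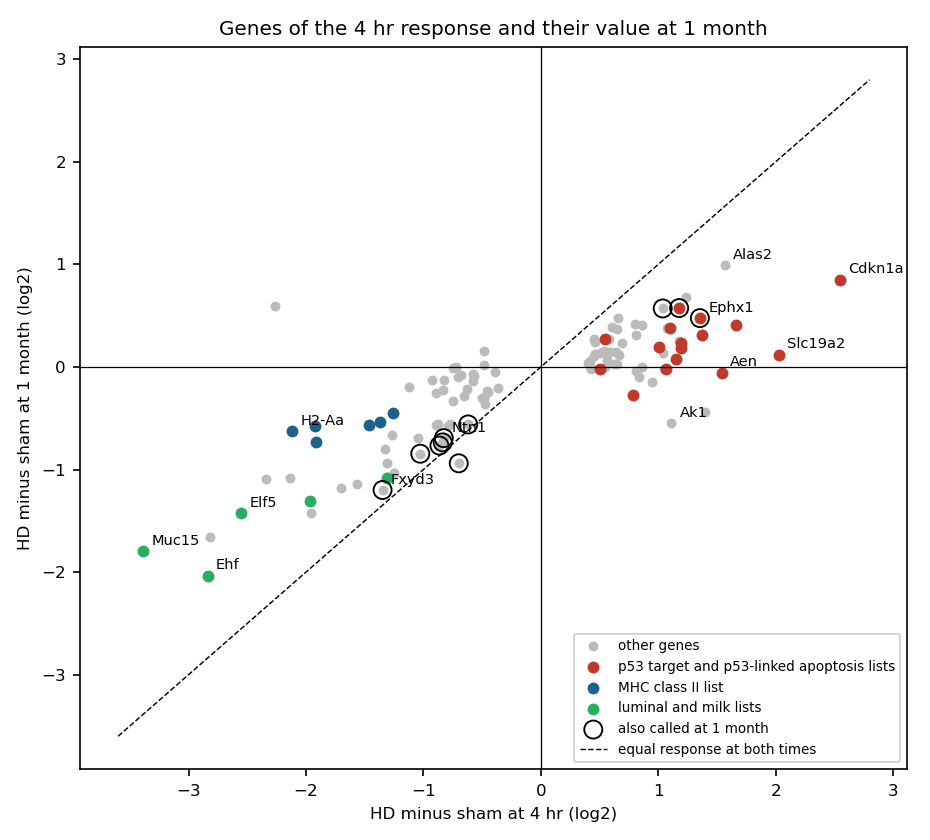
HD minus sham at 4 hr (horizontal axis, log2) against HD minus sham at 1 month (vertical axis, log2) for the 114 genes called at 4 hr, each at its probe set with the smallest p at 4 hr; colours mark gene lists, rings the 10 genes also called at 1 month, and the dashed line equal responses. Genes higher at 4 hr lie near 0 at 1 month, with a median of 0.14, while 56 of the 59 genes lower at 4 hr lie below 0 at 1 month too, with a median of −0.56, and Angptl8 lies at 0.60.

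Among epithelial genes of the early response that were not called at 1 month, Ehf was −2.84 at 4 hr and −2.03 at 1 month (adjusted p = 0.074), Muc15 −3.39 and −1.80 (adjusted p = 0.0953 at 1 month) and Kit, the receptor of luminal progenitors, −1.31 and −1.08 (adjusted p = 0.0674 at 1 month). Of the genes whose sign turned, the largest turn was that of Angptl8, a regulator of plasma triglycerides made by liver and fat, named after its values were seen, with −2.26 at 4 hr and 0.60 at 1 month.

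Among the genes higher at both times were Ccng1, Dglucy and Ephx1. Ccng1, cyclin G1, a p53 target that acts with Mdm2, had at its second probe set 8.94, 8.94, 9.84 and 8.85 in HD 1 month glands and 10.32, 10.45, 10.33 and 10.26 in HD 4 hr glands, against 8.46 to 8.56 in sham 1 month glands and 9.01 to 9.23 in sham 4 hr glands. All 4 HD 1 month arrays lay above the sham 1 month range and 3 of them below every sham 4 hr array, and sham glands fell by 0.65 over the month (adjusted p = 0.0368). The difference from sham was 0.64 at 1 month (adjusted p = 0.0462) and 1.19 at 4 hr (adjusted p = 0.000304). Without HD 1 month replicate 3 the 1 month difference was 0.41 (adjusted p = 0.0548), and the call was lost in 15 of 26 alternatives. The brightest Ccng1 probe set gave 0.26 at 1 month and was not called (adjusted p = 0.327), while the dimmest gave 0.57 (adjusted p = 0.0375). Ephx1, the microsomal epoxide hydrolase of detoxification, had 9.49, 9.88, 10.07 and 9.79 in HD 1 month glands and 10.64, 10.57, 10.80 and 10.70 in HD 4 hr glands, against 9.13 to 9.41 in sham 1 month glands and 9.16 to 9.50 in sham 4 hr glands. It fell by 0.87 and was still 0.48 above sham at 1 month (adjusted p = 0.0462), a call lost in 13 of 26 alternatives. Dglucy, the mitochondrial D-glutamate cyclase, had 8.57, 8.67, 8.69 and 8.38 in HD 1 month glands and 8.71, 8.76, 9.21 and 9.15 in HD 4 hr glands, against 7.88 to 8.12 in sham 1 month glands. It was 0.57 above sham at 1 month (adjusted p = 0.0392) and 1.04 above it at 4 hr (adjusted p = 0.000228).

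Lower at both times at the same probe set were 7 genes. Ccr2, the receptor that brings monocytes out of the blood, had 6.43, 6.45, 7.04 and 7.03 in HD 1 month glands and 5.71, 6.29, 5.95 and 6.41 in HD 4 hr glands, against 8.02 to 8.19 in sham 1 month glands and 7.26 to 8.57 in sham 4 hr glands. Every HD array lay below every sham array. The difference was −1.33 at 1 month (standard error 0.30, adjusted p = 0.0423) and −1.85 at 4 hr (standard error 0.32, adjusted p = 0.00574). Fxyd3, a regulator of the sodium pump in epithelia, had 9.50, 9.40, 9.49 and 10.04 in HD 1 month glands and 8.56, 9.10, 8.53 and 9.05 in HD 4 hr glands, against 10.67 to 11.08 in sham 1 month glands and 10.01 to 10.42 in sham 4 hr glands. At each time the HD arrays lay below the sham arrays, and the difference was −1.20 at 1 month (adjusted p = 0.0309) and −1.35 at 4 hr (adjusted p = 0.0152). Ntn1, the guidance and adhesion protein netrin-1, had 7.49, 7.88, 7.58 and 7.98 in HD 1 month glands and 7.27 to 7.48 in HD 4 hr glands, with sham glands at 8.22 to 8.67 at 1 month and 8.13 to 8.33 at 4 hr. Again no HD array reached a sham array, with −0.69 at 1 month (adjusted p = 0.0123) and −0.83 at 4 hr (adjusted p = 0.00177). Ramp1, a subunit of the CGRP receptor, had 5.71 to 5.80 in HD 1 month glands and 5.27 to 5.73 in HD 4 hr glands, with 6.23 to 7.10 and 6.00 to 6.35 in sham glands at 1 month and 4 hr. Its 1 month difference of −0.94 (adjusted p = 0.01) was the larger one, and its 4 hr call was lost in 19 of 26 alternatives.

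Prkcd, protein kinase C delta, lay at −0.77 at 1 month (adjusted p = 0.0381) and −0.86 at 4 hr (adjusted p = 0.0194), and Arrb1, beta-arrestin 1, at −0.73 (adjusted p = 0.0391) and −0.84 (adjusted p = 0.0219). Efhd2, a calcium-binding protein named as the remaining one, completed the 7. At 1 month the calls of Ccr2, Fxyd3, Prkcd and Arrb1 were each lost in 8 of 26 alternatives and that of Ntn1 in 4. None of the 10 genes was called at both times without sham 1 month replicate 2, and none with plate column as a covariate. Since sham arrays lay in plate columns 1 to 5, column and dose cannot be told apart in these comparisons.

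**Figure D4:**
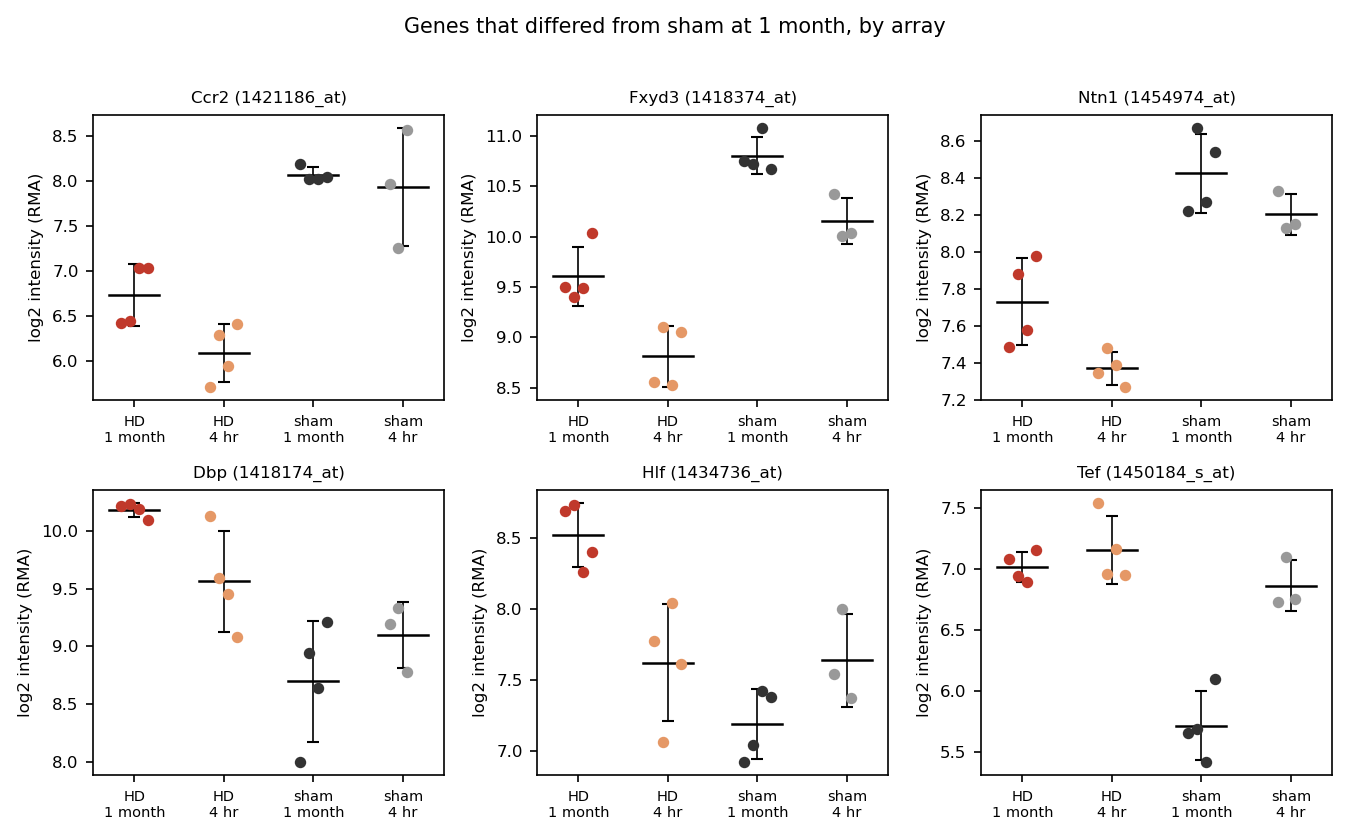
Log2 intensity (vertical axis) of 6 genes that differed from sham glands at 1 month, in each array of C57BL/6 HD and sham glands at 1 month and 4 hr; lines are group means and bars are SDs (n = 4, and 3 for sham 4 hr). For Ccr2, Fxyd3 and Ntn1 the HD arrays lie below the sham arrays of the same time, while Dbp, Hlf and Tef are apart from sham at 1 month only.

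Of the 151 genes called at 1 month, 77 had an unadjusted p over 0.05 at 4 hr, 47 of them higher and 30 lower at 1 month. Among the higher ones with the largest responses were 3 clock output factors, which carry the daily rhythm to other genes. Dbp, the D-box binding protein, had 10.21, 10.23, 10.19 and 10.09 in HD 1 month glands and 10.13, 9.59, 9.45 and 9.08 in HD 4 hr glands, against 8.00 to 9.21 in sham 1 month glands and 8.78 to 9.33 in sham 4 hr glands. Its 1 month response was 1.48 (adjusted p = 0.0391), and its change over the month, 0.62, was not called (adjusted p = 0.319). Hlf, a second factor of the same family, had 8.69, 8.73, 8.26 and 8.40 in HD 1 month glands, 7.06 to 8.04 in HD 4 hr glands, 6.92 to 7.42 in sham 1 month glands and 7.37 to 8.00 in sham 4 hr glands. Hlf rose by 0.90 over the month (adjusted p = 0.0368), and its 1 month response was 1.33 (adjusted p = 0.00975). The call over the month was lost in 12 of 27 alternatives. A second Hlf probe set gave 0.79 over the month (adjusted p = 0.0979) and a 1 month response of 1.25 (adjusted p = 0.0228). Tef, the third, had 6.89 to 7.15 in HD 1 month glands and 6.95 to 7.54 in HD 4 hr glands, while sham glands had 5.42 to 6.10 at 1 month and 6.73 to 7.10 at 4 hr. In Tef it was the sham level that fell, by 1.14 (adjusted p = 0.0166), while HD glands differed by −0.14 between the times (adjusted p = 0.759). Of 15 clock genes Dbp, Hlf, Tef and Per3 were higher than sham at 1 month (all genes: 0.449% higher), with a list median of 0.40, and Hlf alone was called over the month. Without HD 1 month replicate 3 there were 2 at 1 month, and by limma 0 with plate column as a covariate or without that array and sham 1 month replicate 2 together.

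The other late genes named here were chosen by size alone. Crtac1, a matrix protein of cartilage, had 6.60, 5.55, 5.40 and 5.19 in HD 1 month glands, 4.30 to 5.04 in HD 4 hr glands and 3.99 to 4.62 in sham 1 month glands, with a 1 month response of 1.40 (adjusted p = 0.0182). Trpc6, a cation channel, had 5.50, 5.34, 5.23 and 4.41 in HD 1 month glands against 3.89 to 4.27 in sham 1 month glands, and its response was 1.09 (adjusted p = 0.00975). The 2 acyl-CoA thioesterase genes Acot1 and Acot2, whose sequences are near-identical so that their probe sets may share signal, were lower than sham at 1 month, by −1.26 (adjusted p = 0.0406) and −0.97 (adjusted p = 0.0493). Acot1 had 6.85 to 8.13 in HD 1 month glands and 6.82 to 8.00 in HD 4 hr glands, while sham glands had 8.32 to 9.49 at 1 month and 7.29 to 7.51 at 4 hr, so that here too the sham glands moved. Scin, an actin-severing protein, had 4.75 to 4.99 in HD 1 month glands against 5.86 to 6.49 in sham 1 month glands (−1.23, adjusted p = 0.0287). Ets2, a transcription factor, Slc39a14, a zinc importer, and Bmp1, the procollagen C-proteinase, were each −0.77, and Bmp1 lost its call in 20 of 26 alternatives. By limma no gene was called between HD and sham at 1 month without HD 1 month replicate 3 and sham 1 month replicate 2 together.

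No gene of the lists for dividing cells passed the test. The 46 mitosis and spindle genes had a median of 0.30 over the month, with 41 above 0. The 16 MCM helicase and licensing genes had 0.31 and the 25 DNA synthesis genes 0.26, and 0 were called in each list. Against sham glands the medians of these lists, in that order, were −0.39, −0.52 and −0.35 at 4 hr. At 1 month they were −0.21, −0.10 and −0.04, with 0 called at either time. The change over the month was −0.78, −0.35 and −0.31 in LD glands and 0.15, −0.05 and −0.01 in sham glands. Mki67, the proliferation marker, had 7.10, 6.82, 8.72 and 7.65 in HD 1 month glands and 5.52, 6.73, 5.35 and 6.14 in HD 4 hr glands, which did not overlap. Sham glands spanned both groups, with 5.86 to 9.98 at 1 month and 6.29 to 8.78 at 4 hr, and the Mki67 difference of 1.64 was not called (adjusted p = 0.276). Mcm4, a subunit of the replicative helicase, differed by 0.60 (adjusted p = 0.104). The cell cycle homology region TTTGAA was found in 78.4% of 37 mitosis promoters and 20.2% of all genes, and the E2F letters TTTGGCGC or TTTCCCGC in 46.2% of 13 licensing promoters and 1.8% of all genes, searched on both strands in the same windows. Collagen and other matrix genes had a median of 0.16 and white adipocyte genes of 0.02, with 0 called in either list. Lipogenesis genes had a median of −0.38 with 0 of 19 called in HD glands, against −1.27 with 7 lower in sham glands (all genes in sham glands: 2.41% lower). H1f2, a linker histone, fell by 0.74 (adjusted p = 0.00104). It fell in sham glands too, since HD minus sham was 0.17 at 4 hr and 0.00 at 1 month, neither called. Smad7, the inhibitor of TGF-beta signalling, rose by 0.54 (adjusted p = 0.0123).

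**Figure D5:**
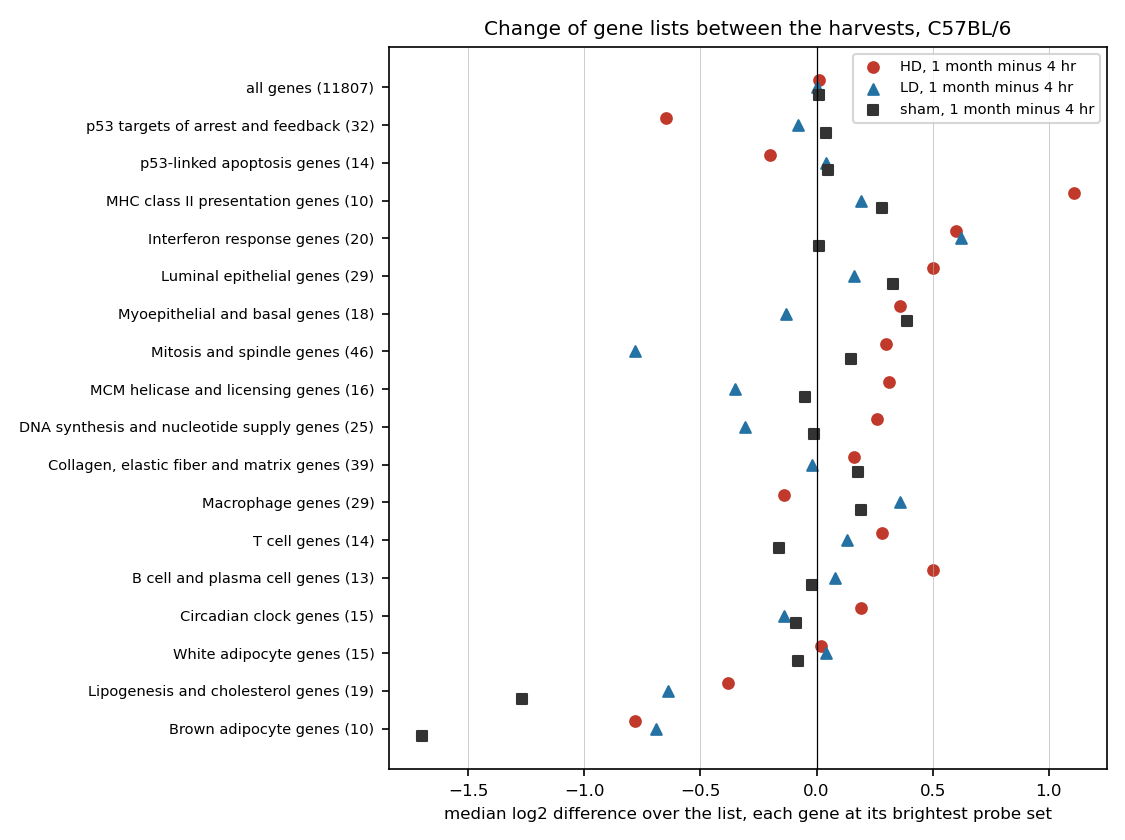
Median log2 difference over each gene list between 1 month and 4 hr (horizontal axis) in HD (circles), LD (triangles) and sham (squares) C57BL/6 glands; numbers in brackets are measured genes. The p53 list lies at −0.65 in HD, −0.08 in LD and 0.04 in sham glands, the MHC class II list at 1.11, 0.19 and 0.28, and the interferon list at 0.60 in HD and 0.62 in LD glands.

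The change in C57BL/6 HD glands was then set beside that in BALB/c HD glands, which were hybridised on another plate. The p53 list had a median of −0.65 in C57BL/6 and −0.80 in BALB/c, with 15 and 19 of 32 genes lower (over all 11807 genes, 57 in C57BL/6 and 279 in BALB/c), the MHC class II list 1.11 and 1.32, and the luminal list 0.50 and 0.46. Cdkn1a changed by −2.47 in C57BL/6 and −2.41 in BALB/c, and Slc19a2 by −1.81 and −1.92. Over all probe sets 261 (1.15%) were called in C57BL/6 and 1076 in BALB/c, with median standard errors of 0.113 and 0.119. The C57BL/6 counts came from the fit on 23 arrays and the BALB/c counts from that on all 43 MG arrays. In the fit on 43 arrays C57BL/6 had 225 genes called, against 192, and 14 p53 list genes lower, against 15. The test of the difference itself called 1 probe set of 22626 (0.00442%), H2-Ea, at −2.18 (standard error 0.31, adjusted p = 0.000718). H2-Ea had 3.77 to 4.13 in HD 1 month glands and 3.92 to 4.08 in HD 4 hr glands of C57BL/6, a strain known to lack this class II chain, and 10.56 to 12.28 and 8.71 to 9.67 in those of BALB/c. At an unadjusted p under 0.05 there were 1055 probe sets, and among probe sets with a mean over 5 alone limma called 0. That mean was taken over the C57BL/6 arrays, and H2-Ea lay below 5 in all of their HD arrays. The 0 therefore does not test the H2-Ea call. Against LD glands of C57BL/6, the change over the month differed for 8 genes, 0.0678% of genes.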

How the data were processed

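RNA of single mouse mammary glands was hybridised to Affymetrix HT_MG-430A arrays, 1 array per mouse. The authors deposited log2 intensities after robust multi-array average (RMA) processing, a step that corrects background, equalises the distributions of the arrays and sums probes. The submitters' processing notes name RMA and limma, with versions not given in the sources used here. RMA makes values comparable between arrays but sets the higher and lower split partly by its scaling.

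Groups came from the sample titles. A limma model (version 3.58.1, R 4.3.3) with 1 mean per group was fitted to 22626 probe sets on the 23 C57BL/6 MG arrays, with contrasts for HD 1 month minus HD 4 hr, HD minus sham at each time, the sham and LD changes, and the differences of these changes. The BALB/c changes and the difference between strains came from a fit of the same kind on all 43 MG arrays. The Benjamini-Hochberg adjustment covered every probe set, with calls at an adjusted p under 0.05. A gene counts as called when any of its probe sets was; 18003 probe sets carried 1 symbol, 287 several and 4336 none, giving 11807 genes. Gene lists were read at each gene's brightest probe set. Signal is not a count, so no depth is known and the number of arrays limits precision; the median standard error of the HD change was 0.113.

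Genes named were the 10 highest and 10 lowest differences with arrays that did not overlap, up to 6 per direction of those staying changed, recovering or appearing late, up to 4 per list, and list members by role. The members and lists were chosen with earlier results of these data known. Replicate numbers did not pair the samples: residuals of arrays with the same number correlated at a mean of 0.0124 over 55 pairs and at −0.152 to 0.157 over the HD pairs. On simulated data 65%, 92.5% and 98.5% of probe sets changed by 0.5, 1 and 2 were recovered for HD 1 month against HD 4 hr. There were 33 false calls among the unchanged probe sets. The simulated noise was independent between probe sets and arrays. It held no outlying array, shared shift or plate effect, so the figures do not cover those features of the real arrays. Promoter windows came from RefSeq (GRCm38.p6). Alternatives were other scalings, arrays, filters, variance models, blocks and thresholds, and each array left out. The fit without HD 1 month replicate 3 and sham 1 month replicate 2 was added after the data were seen. The study's thresholds here are those it set for the high dose, an absolute log2 difference over 0.58 and a p under 0.01, taken without adjustment. Blood arrays were not used.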

Additional observations from a re-analysis of the deposited data

Results flagged for a closer look

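Among the named genes, 8 arrays stood apart from their groups by Dixon's test, of 138 groups tested over 46 probe sets; chance gives about 1 in 20 groups. In HD 1 month glands replicate 3 was high for Ccng1 at 9.30 (others 8.63 to 8.71) and at its second probe set at 9.84 (others 8.85 to 8.94). The same array was high for Zmat3 at 8.44 (others 7.81 to 7.89), Mdm2 at 8.76 (others 8.21 to 8.28) and Coro1a at 9.49 (others 7.20 to 7.52). HD 1 month replicate 4 was high for Fxyd3 at 10.04 (others 9.40 to 9.50). HD 4 hr replicate 2 was low for Ms4a4b at 5.05 (others 5.12 to 5.14), and sham 1 month replicate 1 was low for Ephx1 at 9.13 (others 9.38 to 9.41).

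The change over the month differed between HD and sham glands for 7 genes by the interaction contrast in limma. The HD change minus the sham change was −1.91 for Slc19a2 (adjusted p = 0.000176), −1.66 for Ak1 (adjusted p = 0.0278), −1.09 for Txnip (adjusted p = 0.0163), −1.02 for Dcxr (adjusted p = 0.00465) and −0.53 for Ei24 (adjusted p = 0.0278). Both probe sets of Aen differed, at −1.60 (adjusted p = 0.00203) and −1.52 (adjusted p = 0.0278), and both of Mdm2, at −1.08 (adjusted p = 0.00414) and −1.09 (adjusted p = 0.0265). Between strains, the C57BL/6 change minus the BALB/c change was −2.18 for H2-Ea (adjusted p = 0.000718).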

How the results depend on the processing

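None of the 76 calls of named genes changed sign under any alternative. Named differences without a call were not checked in this way. The counts of called genes were unstable, and the split between higher and lower genes turned when arrays were centred. The macrophage list median of −0.14 was 0.17 without HD 1 month replicate 1. HD 1 month against HD 4 hr called 192 genes, against 76 without HD 1 month replicate 3 and sham 1 month replicate 2 (chosen after seeing the data), 104 with the 15 HD and sham arrays, 71 with the 8 HD arrays, 18 with plate column as a covariate and 91 at an absolute log2 difference over 0.58. Leaving out single arrays gave 37 to 506 genes: 37, 55, 105 and 506 without HD 4 hr replicates 1, 2, 3 and 4, and 123, 124, 75 and 54 without HD 1 month replicates 1, 2, 3 and 4. HD against sham at 4 hr called 114, against 202 with arrays centred on their medians, 36 with plate column, 294 at the study's thresholds and 49 to 147 with single arrays left out (51 and 55 without HD 4 hr replicates 1 and 3, 49 and 70 without sham 4 hr replicates 1 and 3). HD against sham at 1 month called 151, against 0 without the 2 arrays, 0 with plate column, 252 with array weights, 299 with both strains, 84 over 0.58, 306 at the study's thresholds and 15 to 350 with single arrays left out (24, 17 and 54 without HD 1 month replicates 1, 2 and 3, and 60, 21, 15 and 350 without sham 1 month replicates 1, 2, 3 and 4). The sham change called 455, against 9 without the 2 arrays, 258 with the 15 arrays, 195 over 0.58 and 0 to 567 with single arrays left out (0 without sham 4 hr replicate 2, and 15 and 23 without sham 1 month replicates 2 and 3). The difference from sham called 7, against 14 without the 2 arrays, 13 centred, 11 quantile normalized again, 4 with plate column, 118 at the study's thresholds and 4 to 16 with single arrays left out (16 without HD 1 month replicate 3, 4 without sham 4 hr replicate 2 or 3, 12 without sham 1 month replicate 1). Of the 4 hr genes, 10 were called at 1 month, against 0 without the 2 arrays or with plate column, 24 with array weights, 30 with both strains, 21 over a mean of 5 or centred, 48 with the 15 arrays and 0 to 22 with single arrays left out (4 and 5 without HD 4 hr replicates 1 and 3, 3, 1 and 3 without HD 1 month replicates 1, 2 and 3, 5 and 17 without sham 4 hr replicates 1 and 2, 4, 0, 3 and 22 without sham 1 month replicates 1, 2, 3 and 4). The LD change called 0, against 25 with both strains, 1 with trended variance and 2 with 1 probe set per gene. With single arrays left out it called 0 to 1. At the study's high-dose thresholds it called 145, while the study itself used a looser p for the low dose. The strain difference called 1 probe set, against 0 over a mean of 5 or with 1 probe set per gene, 75 at the study's thresholds and 1 to 2 with single arrays left out. Centring moved the median of all probe sets by −0.07 for the HD change, 0.09 for the 4 hr response and 0.05 for the 1 month response. The causes were not tested.

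With the replicate number as a block, HD 1 month against HD 4 hr called 125 genes, the difference from sham 12 and the LD change 3; 84, 139, 317, 1 and 11 were called at 4 hr, at 1 month, in sham glands, between strains and among the 4 hr genes at 1 month. The numbers did not pair the samples. Of 76 calls of named genes, 56 were lost with plate column as a covariate, 32 without the 2 arrays and 11 with the replicate block.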
